A study of Mus musculus with 4 samples.

Results

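Voltage-gated and TRP ion channels are membrane proteins that open a pore for potassium, calcium, sodium or mixed cations when the membrane voltage, a ligand, calcium or temperature changes. Their genes were taken by symbol: potassium channel genes of the Kcn series, Cacn calcium channel genes, Scn sodium channel genes, Hcn genes and the TRP genes of the A, C, M and V subfamilies, without the imprinted Kcnq1 and its antisense RNA. The annotation held 159 such symbols, and 142 of them stood among the 20296 genes of the authors' deposited table. Trpc4ap, an adaptor gene, and Trpc5os, a gene on the strand opposite Trpc5 that the annotation lists as protein-coding, match by name only, which leaves 140 channel subunits. Neither passed, with 1430 and 9.82 normalized counts in EpiLSC and 1519 and 44.9 in nESC. RNA was sequenced from epiblast-like stem cells (EpiLSC) and naive embryonic stem cells (nESC) of the mouse lines R1 and E14TG2a (E14), with 1 sample per line and state. EpiLSC were made from nESC in N2B27 medium with activin A at 20 ng/ml and bFGF at 12 ng/ml and collected on day 3, and nESC were held in 2i/LIF. Each line was sampled 1 time per state, so the p-values rest on the spread between these 4 cultures. Whether the authors' model held the line is not given in the sources used here, so line differences may be included. State and medium cannot be told apart.

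Excitable cells use these channels in a division of labour. Potassium channels set the resting potential and end action potentials, sodium channels start them, and calcium channels turn voltage into calcium entry for secretion, contraction and gene control. TRP channels mostly admit calcium and other cations in response to receptors and to physical or chemical stimuli. Many of these genes are known mainly from neurons and muscle. Pore-forming subunits work with auxiliary subunits, such as the beta and alpha2delta proteins of calcium channels, that control their number at the surface and their gating.

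The authors' deposited table holds 1 row per gene and no value per sample: a mean normalized count over the 4 libraries, a log2 fold change with its standard error (SE), and p-values of the DESeq2 Wald test. Positive fold changes were read as higher in EpiLSC, because Fgf5 (8.40, SE 0.76), Otx2 (3.90, SE 0.66) and Dnmt3b (4.63, SE 0.63) were positive and Zfp42 (-6.22, SE 0.62), Klf4 (-6.29, SE 0.68) and Esrrb (-8.54, SE 0.69) negative there. The level of a gene in each state was computed from its mean and fold change. It is in normalized counts, carries no SD, and rests on few reads where it is below 3. Depth per sample is unknown, and the means summed to 27888553 over all genes, of which the 142 genes made up 0.0897%. The general pluripotency marker Pou5f1 was at 7520 in EpiLSC and 8560 in nESC.

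Of the 142 genes 108 were tested, meaning that they had an adjusted p, and 34 with means of up to 3.3 were not. In EpiLSC 31 of the 108 rose and 10 fell, while 67 did not pass. A call means an adjusted p under 0.05 by the Wald test of DESeq2, with the Benjamini-Hochberg adjustment over all tested genes. These are 28.7% and 9.26% of the tested channel genes, while among all 16361 tested genes 7.67% rose and 6.23% fell (13.9% in either direction). Each count by family below stands against these shares of all tested genes, and many families had few tested genes. The channel genes were low, with a median mean of 35.8 against 305 over all tested genes, and low genes were called higher more often than abundant ones. Among genes with a mean below 100, 21 of 81 channel genes rose and 6 fell, against 10.7% and 6.87% of all tested genes of that range. Among genes with a mean from 100 to below 1000, 10 of 24 channel genes rose and 3 fell, against 9.26% and 7.51%. Means of at least 1000 were found for 3 channel genes, of which 0 rose and 1 fell, against 2.4% and 4.0%. The median log2 fold change was 1.46 over the tested channel genes and 0.02 over all tested genes, and with levels under 3 set to 3 these medians were 1.35 and 0.02.

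**Figure D1:**
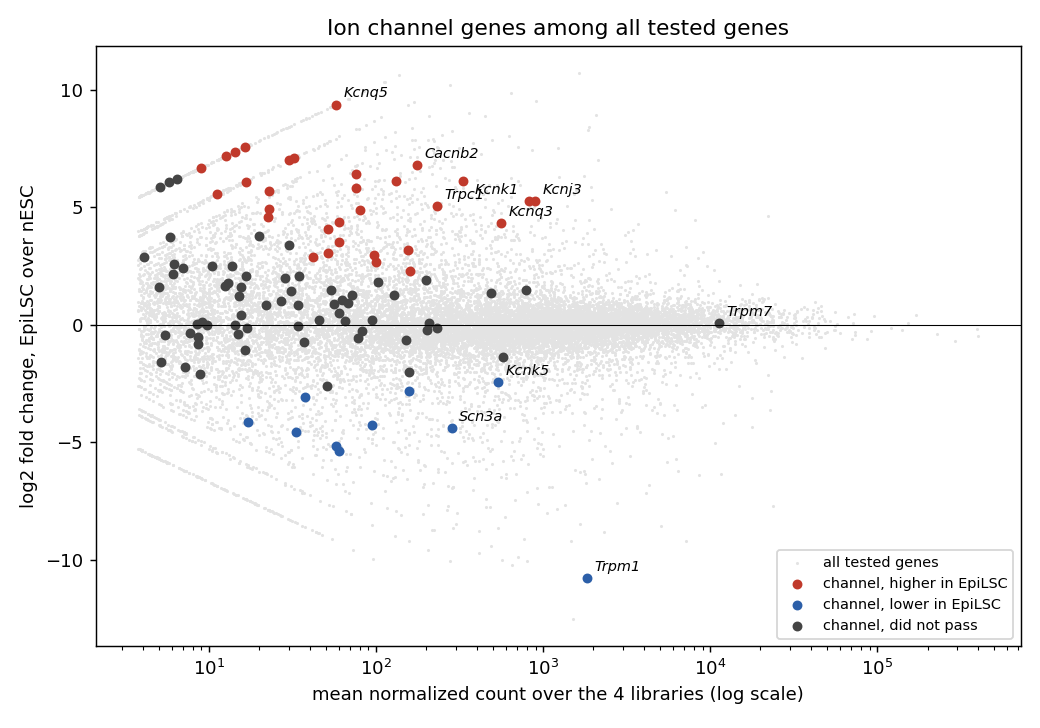
Log2 fold change (EpiLSC over nESC) against the mean normalized count of each tested gene, on a log axis. Grey points are all 16361 tested genes; of the channel subunits 31 lie above zero in red, 10 below in blue, and the others (dark grey) did not pass.

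The smallest called change of a channel gene was 2.29 on the log2 scale, and the median SE was 1.14 over tested channel genes and 0.79 over all tested genes. For 60 of the 67 genes without a call the 95% interval reached past a 4-fold change, so these are not shown to be unchanged. Tested against a 2-fold change, 17 rises and 6 falls stood, against 3.84% and 3.07% of all tested genes in each direction and 6.91% in either. The calls that ended there were those of Kcnh5, Kcnh6, Kcna3, Kcnd2, Kcng3, Kcns3, Kcnip3, Kcnk5, Kcnma1, Kcnmb4, Kcnn2, Kcnu1, Cacna1h, Cacng7, Scn2a, Scn7a, Trpc4 and Trpc6. At an adjusted p under 0.01, where 9.78% of all tested genes were called (5.37% higher and 4.41% lower), 8 of these 18 calls ended. With no filter on low means, where 10.6% were called (5.84% higher and 4.75% lower), that of Kcnu1 ended. When genes below a mean of 100 were left out, 27 channel genes remained. Of these 10 rose and 4 fell, against 5.94% and 5.74% of all genes tested in that setting. Centred on the median fold change, 7.59% of all tested genes were called higher and 6.31% lower, and the 41 calls stood. The level of the lower state was under 3 for 14 of the rises and 4 of the falls, and the sizes of those folds rest on few reads. For 5 of the rises, those of Kcnq5, Kcna1, Scn7a and Kcnh5 among them, it was under 0.2, where the fitted fold change is no bound on the true one.

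**Figure D2:**
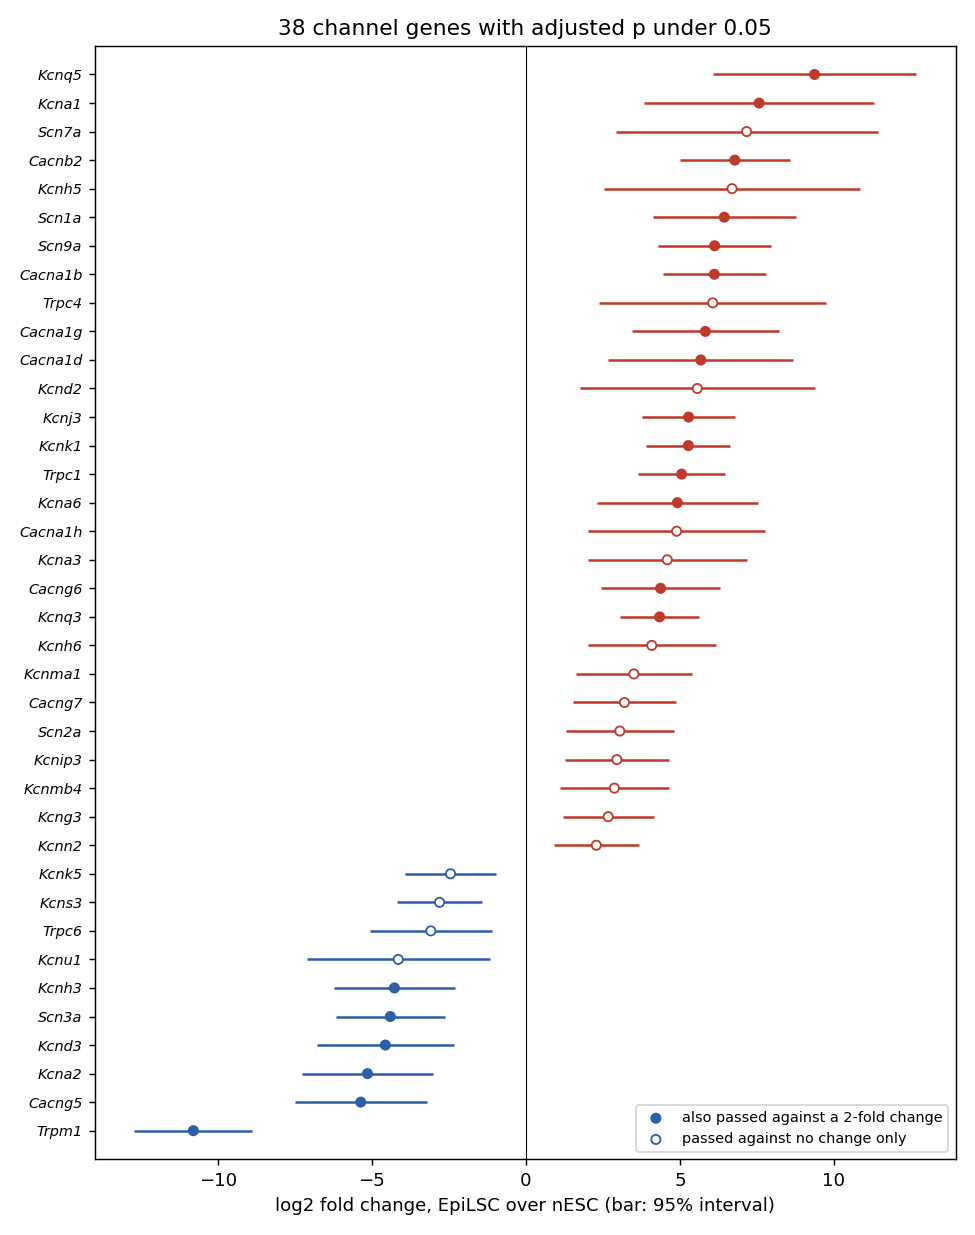
Log2 fold change (EpiLSC over nESC) of 38 of the 41 called channel genes, with bars for the 95% interval from the deposited standard error. Filled points also passed the test against a 2-fold change (14 rises and 6 falls), open points did not, and Trpm1 lies apart from the other falls.

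The largest change in level among the called genes was the fall of Trpm1, a cation channel of retinal bipolar cells and melanocytes whose gene is a known target of the transcription factor MITF in melanocytes. Trpm1 was at 2.07 in EpiLSC and 3669 in nESC, and the authors' deposited table gave a log2 fold change of -10.79 (SE 0.98, DESeq2 adjusted p 5.27e-25). The level in EpiLSC rests on few reads and is uncertain. Per kilobase of exon Trpm1 was at 0.140 in EpiLSC and 249 in nESC, where Trpm7 (971) and Kcnk5 (267) were higher. The RefSeq table gives Trpm1 a pair of start sites. The 250 bases before each are shown because the gene had the largest fall, with the hexamers CATGTG and CACGTG, letters that factors of the MITF and TFE family can bind, in capitals:
Trpm1 (GRCm38.p6 chr7:64153585-64153834, + strand): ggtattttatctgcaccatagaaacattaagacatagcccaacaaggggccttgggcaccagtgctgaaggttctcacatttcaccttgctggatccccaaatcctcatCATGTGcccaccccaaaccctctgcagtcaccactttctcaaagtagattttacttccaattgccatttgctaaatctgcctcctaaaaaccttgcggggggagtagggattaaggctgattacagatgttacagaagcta
Trpm1 (GRCm38.p6 chr7:64185209-64185458, + strand): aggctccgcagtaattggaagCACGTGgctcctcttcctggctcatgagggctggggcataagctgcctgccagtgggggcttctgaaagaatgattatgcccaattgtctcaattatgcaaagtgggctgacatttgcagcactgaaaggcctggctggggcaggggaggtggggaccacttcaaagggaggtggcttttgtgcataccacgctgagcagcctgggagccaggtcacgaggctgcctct
The upstream start site had 1 CATGTG and the other 1 CACGTG, searched on both strands. These letters occur in 12.3% and 6.02% of the 32851 promoter windows of the same length in that table, so such a match is common, and the table of counts does not tell which start site was used. Mitf itself fell to 73.9 in EpiLSC, against 3850 in nESC (log2 fold change -5.70, SE 0.72, in the authors' deposited table). Of the 8 melanocyte and retinal pigment markers 7 were in the table. Of the 5 tested ones Mitf, Pmel and Mlana fell and 0 rose, against 6.23% and 7.67% of all tested genes. The summed level of the list was 134.8 in EpiLSC and 4241 in nESC, of which Mitf made up 73.9 and 3850. Dct was not in the table, and Tyrp1 was under 3 in both states. Tyr and Tyrp1, the pigment enzyme genes, were not tested, with levels of 3.64 and 2.28 in EpiLSC and 0.168 and 0.164 in nESC. The part of these markers in the fall of Trpm1 was not tested.

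Trpm7, a channel fused to a protein kinase that carries magnesium, zinc and calcium, had the highest level per kilobase of the channel genes in both states. Its level was 11575 in EpiLSC and 10988 in nESC (log2 fold change 0.08, SE 0.71, in the authors' deposited table), with a 95% interval from -1.31 to 1.46. It made up 45.1% of the summed means of all 142 genes. Of the other TRPM genes Trpm4, a calcium-activated channel, was at 186 in EpiLSC and 215 in nESC, and Trpm6, the closest relative of Trpm7, was at 27.9 and 45.8. Trpm2 was at 9.45 in EpiLSC and 8.73 in nESC, and Trpm5 was not tested. Of the TRPM family 0 rose and 1 of 6 tested genes fell, and without Trpm1 the others had log2 fold changes between -0.83 (SE 1.53, Trpm3) and 0.12 (SE 1.41, Trpm2) in the authors' deposited table.

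The TRPC genes, whose channels open downstream of phospholipase C, included Trpc1 and Trpc4, which rose, and Trpc6, which fell. Trpc1 was at 449 in EpiLSC and 13.5 in nESC (log2 fold change 5.06, SE 0.72, in the authors' deposited table). Trpc4 was at 32.8 in EpiLSC and 0.490 in nESC. Trpc6 was at 7.90 in EpiLSC and 67.1 in nESC (log2 fold change -3.09, SE 1.01, in the authors' deposited table). Per kilobase of exon, Trpc6 made up 2.11% of the summed TRPC level in EpiLSC and 87.5% in nESC, and Trpc1 75.7% in EpiLSC and 11.1% in nESC. Trpc5 and Trpc7 were not tested.

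Trpa1, a sensor of irritants, was at 314 in EpiLSC and 84.1 in nESC and did not pass (log2 fold change 1.90, SE 0.78, in the authors' deposited table; DESeq2 adjusted p 0.0893). Of the TRPV genes 0 of 3 tested ones were called. Trpv2 had the highest level per kilobase, with 43.9 normalized counts in EpiLSC and 24.5 in nESC, and Trpv3, with the smallest p, was at 10.5 and 22.4. Trpv4 was at 16.1 in EpiLSC and 17.6 in nESC, and Trpv1 and Trpv6 were not tested.

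Potassium channels supplied 80 of the genes. Of these 55 were tested, and 15 rose and 6 fell, against 7.67% and 6.23% of all tested genes. The median log2 fold change of the tested potassium channel genes was 1.81, against 0.02 over all tested genes. The 9 K2P genes in the table, whose channels have a tandem pore and leak potassium at rest, had a different leading member in each state. Kcnk1, which encodes TWIK-1, rose to 1605 in EpiLSC, against 41.5 in nESC (log2 fold change 5.27, SE 0.69, in the authors' deposited table). Kcnk5, which encodes the alkali-activated TASK-2, fell to 167 in EpiLSC, against 909 in nESC (log2 fold change -2.45, SE 0.76, in the authors' deposited table). Per kilobase of exon Kcnk1 made up 88.4% of the summed K2P level in EpiLSC and 6.22% in nESC, and Kcnk5 6.03% in EpiLSC and 89.4% in nESC. Kcnk6, which encodes TWIK-2, was at 160 in EpiLSC and 45.5 in nESC and did not pass, nor did Kcnk2, and 5 further K2P genes were not tested.

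Among the 13 inward rectifier genes Kcnj3 alone was called of 7 tested. It encodes GIRK1, a subunit of channels opened by G protein beta-gamma subunits, and was at 1750 in EpiLSC and 45.0 in nESC (log2 fold change 5.28, SE 0.77, in the authors' deposited table). GIRK1 is known to need a GIRK2 or GIRK4 partner to reach the surface. Their genes were barely seen: Kcnj6 (GIRK2) and Kcnj5 (GIRK4) were not tested, with means over the 4 libraries of 1.28 and 0.940, and Kcnj9 (GIRK3) was at 10.6 in EpiLSC and 1.77 in nESC. Kcnj12, an inward rectifier of the strong Kir2 type, was at 14.4 in EpiLSC and 86.7 in nESC and did not pass (adjusted p 0.122, DESeq2 Wald test). Of the exon bases of Kcnj3, 31.1% overlap a noncoding gene on the opposite strand, and the strand setting of the counting is not given in the sources used here.

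Of the 38 pore genes of voltage-gated potassium channels 31 were tested, and 9 rose and 4 fell. Kcnq3 and Kcnq5, genes of the M-current, rose. Kcnq3 was at 1064 in EpiLSC and 52.6 in nESC (log2 fold change 4.34, SE 0.66, in the authors' deposited table), and Kcnq5 at 115 and 0.174 (9.37, SE 1.69, from the authors' deposited table). Among Kv1 genes Kcna1, Kcna3 and Kcna6 rose, with levels of 32.8, 43.2 and 44.1 in EpiLSC and 0.173, 1.79 and 1.46 in nESC. Kcna2 fell to 3.16 in EpiLSC, against 112 in nESC. Of the exon bases of Kcna6, 39.6% overlap an antisense gene.

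Genes of the ether-a-go-go family split as well. Kcnh6 rose to 97.0 in EpiLSC, against 5.72 in nESC, and Kcnh5 to 17.8, against 0.172, while Kcnh3 fell to 9.36 in EpiLSC, against 180 in nESC. In the authors' deposited table Kcnh6 had a log2 fold change of 4.09 (SE 1.06) and Kcnh3 of -4.27 (SE 1.00). Kcnh2, the erg channel gene of the heart, was at 101 in EpiLSC and 41.5 in nESC and did not pass, nor did Kcnh4, Kcnh7 and Kcnh8. Of the 3 Kv4 genes Kcnd2 rose, with 21.7 in EpiLSC and 0.460 in nESC, and Kcnd3 fell, with 2.70 and 63.7. Kcnd1, the highest of them in mean per kilobase, was at 48.5 in EpiLSC and 42.5 in nESC and did not pass. Kcnd3 had a log2 fold change of -4.56 (SE 1.13) in the authors' deposited table. Kcnip3, a calcium-binding partner of Kv4 channels that is also known as DREAM, rose to 172 in EpiLSC, against 22.2 in nESC. Kcnip2 was at 75.8 in EpiLSC and 89.9 in nESC and did not pass.

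The silent subunits, which form no channel alone and modify Kv2 channels, had 1 rise and 1 fall among 6 tested genes. Kcng3 rose to 174 in EpiLSC, against 27.3 in nESC, and Kcns3, the voltage-gated potassium gene with the highest mean per kilobase, fell to 39.7 in EpiLSC, against 277 in nESC. Kcng3 had a log2 fold change of 2.67 (SE 0.75) and Kcns3 of -2.80 (SE 0.71) in the authors' deposited table. The Kv3 genes Kcnc2 and Kcnc4 did not pass, with 14.3 and 9.73 in EpiLSC and 14.4 and 9.72 in nESC.

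Of 9 tested genes for potassium channels activated by calcium or sodium 3 rose and 1 fell. Kcnma1, the pore of the large-conductance BK channel, was at 111 in EpiLSC and 9.75 in nESC. Its beta subunit gene Kcnmb4 was at 73.8 in EpiLSC and 10.1 in nESC. Of the exon bases of Kcnmb4, 20.8% overlap an antisense gene and 10.7% another. Kcnn2, the SK2 gene, was at 266 in EpiLSC and 54.4 in nESC (log2 fold change 2.29, SE 0.71, in the authors' deposited table), the smallest called change of all channel genes. Kcnu1, a relative of Kcnma1 known from sperm, was at 1.83 in EpiLSC and 32.4 in nESC. Its DESeq2 adjusted p was 0.0457, and its call ended with no filter on low values. There the adjusted p of the same Wald test, recomputed over all genes, was 0.0567 (range 0.0442 to 0.337 over its alternatives). Kcnt2, the most abundant gene of the group per kilobase, was at 702 in EpiLSC and 272 in nESC and did not pass (adjusted p 0.209, DESeq2 Wald test).

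**Figure D3:**
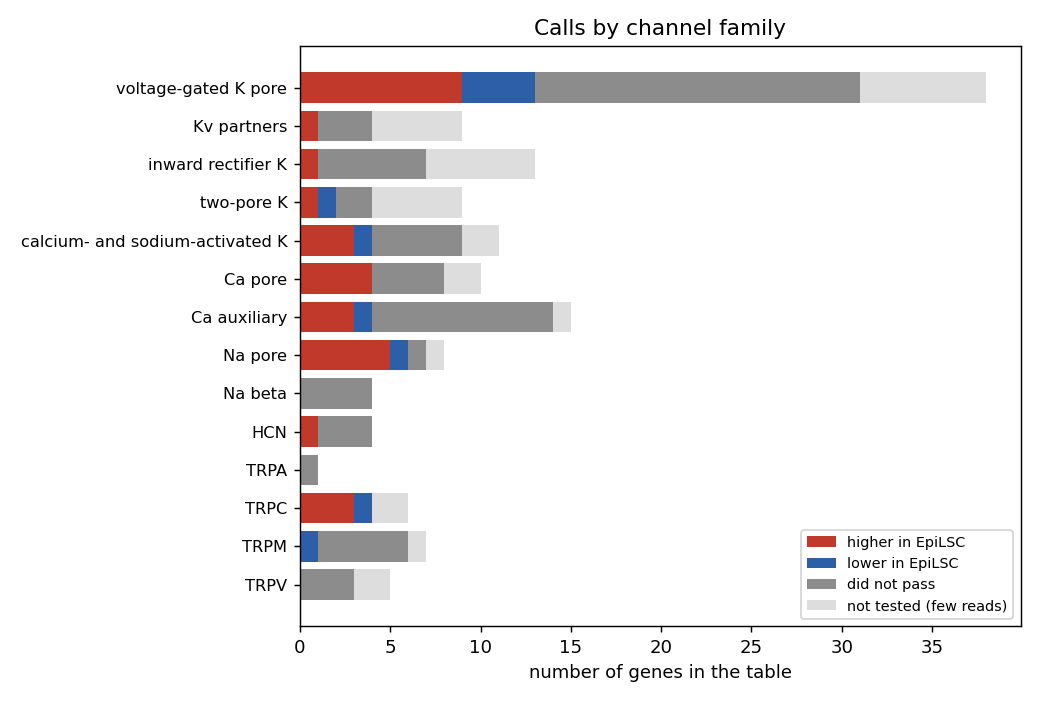
Number of channel genes in the table by family, divided into those higher in EpiLSC, lower in EpiLSC, not past an adjusted p of 0.05 and not tested. The pore genes of sodium channels had 5 rises among 7 tested genes, while 7.67% of all tested genes rose. The sodium channel beta genes and the TRPA and TRPV genes had no call.

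Calcium channels had 7 rises and 1 fall among 22 tested genes, against 7.67% and 6.23% of all tested genes. Of the 8 tested pore genes 4 rose and 0 fell. Cacna1b, the N-type channel of nerve terminals, was at 653 in EpiLSC and 9.41 in nESC (log2 fold change 6.12, SE 0.85, in the authors' deposited table). Both tested T-type genes, which open at low voltage, rose: Cacna1g was at 149 in EpiLSC and 2.63 in nESC (log2 fold change 5.83, SE 1.21, in the authors' deposited table), and Cacna1h at 156 and 5.24. The L-type gene Cacna1d was at 44.8 in EpiLSC and 0.874 in nESC. Cacna1a, the P/Q-type gene, did not pass, with 320 in EpiLSC and 829 in nESC (log2 fold change -1.37, SE 0.85, in the authors' deposited table). Per kilobase of exon Cacna1a made up 21.2% of the summed pore gene level in EpiLSC and 94.9% in nESC, and Cacna1b 49.7% in EpiLSC and 1.24% in nESC.

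Of 14 tested auxiliary calcium channel genes 3 rose and 1 fell. Cacnb2, a beta subunit gene, rose to 350 in EpiLSC, against 3.18 in nESC (log2 fold change 6.78, SE 0.91, in the authors' deposited table). Cacnb1 was at 117 in EpiLSC and 183 in nESC and Cacnb3 at 213 and 202, and neither passed. Cacng6 rose to 115 in EpiLSC, against 5.56 in nESC, and Cacng7 to 280, against 30.5, while Cacng5 fell to 2.84 in EpiLSC, against 117 in nESC. Their log2 fold changes in the authors' deposited table were 4.37 (SE 0.98) for Cacng6, 3.20 (SE 0.85) for Cacng7 and -5.36 (SE 1.09) for Cacng5. Cacng5 and Cacng7 belong to the gamma subunits that are better known as partners of AMPA receptors. Cacna2d1, the alpha2delta gene with the highest mean, was at 1170 in EpiLSC and 418 in nESC and did not pass (log2 fold change 1.48, SE 0.75, in the authors' deposited table; DESeq2 adjusted p 0.219).

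Of 7 tested pore genes of sodium channels 5 rose and 1 fell, against 7.67% and 6.23% of all tested genes. The median log2 fold change of these 7 was 6.13. Scn9a was at 258 in EpiLSC and 3.70 in nESC (log2 fold change 6.13, SE 0.93, in the authors' deposited table), Scn1a at 151 and 1.74 (6.44, SE 1.19, from that table), and Scn2a at 91.8 and 11.1. Scn7a, which encodes the sodium sensor Nax, was at 25.0 in EpiLSC and 0.174 in nESC. Scn3a fell to 25.8 in EpiLSC, against 544 in nESC (log2 fold change -4.40, SE 0.90, in the authors' deposited table). Scn8a was at 222 in EpiLSC and 242 in nESC, with a 95% interval of the log2 fold change from -1.48 to 1.23.

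The summed level of these pore genes was close in the states, while its makeup was not. Per kilobase of exon the sum was 67.6 in EpiLSC and 61.1 in nESC. Scn3a made up 3.06% of it in EpiLSC and 71.5% in nESC, Scn9a 29.9% and 0.474%, Scn1a 20.0% and 0.255%, and Scn8a 20.9% and 25.2%. These shares are computed from fitted values and carry no error. Of the beta subunit genes 0 of 4 passed the DESeq2 Wald test after adjustment. Scn2b, the one with an unadjusted p under 0.05, was at 62.9 in EpiLSC and 251 in nESC (adjusted p 0.0588). Scn2b and Kcng1 (0.0522) were the closest to the threshold among those that did not pass, and Kcnd2 (0.0337) and Kcnu1 (0.0457) the closest among those that did, by the same test. Hcn2, of the pacemaker channels, was at 62.7 in EpiLSC and 93.3 in nESC and did not pass.

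**Figure D4:**
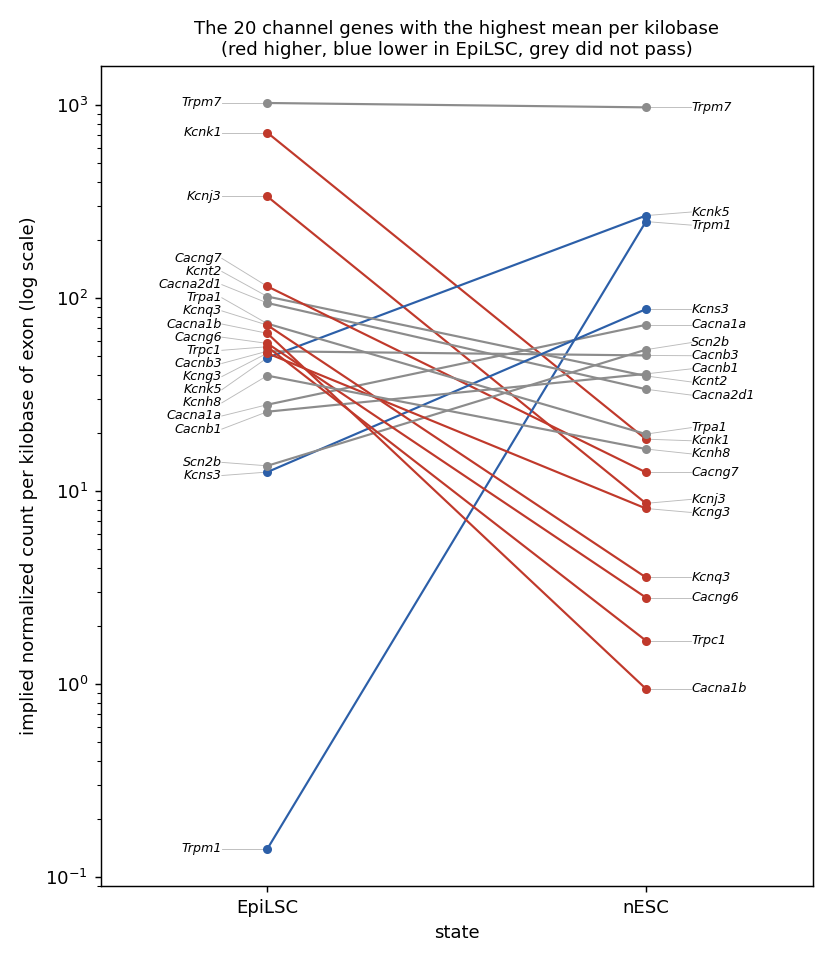
Level of the 20 channel subunit genes with the highest mean per kilobase, in implied normalized counts per kilobase of exon on a log axis, with EpiLSC on the left and nESC on the right. Red lines are the 8 genes that rose, blue lines the 3 that fell (Kcnk5, Trpm1 and Kcns3), and grey lines the 9 that did not pass.

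Several channel genes lie side by side in the genome as copies of an ancestral gene, and neighbours did not always move together. On chromosome 3 Kcna3 and Kcna2 adjoin with no protein-coding gene between them. Kcna3 had a log2 fold change of 4.59 (SE 1.31) and Kcna2 of -5.14 (SE 1.08) in the authors' deposited table, with 95% intervals from 2.02 to 7.16 and from -7.26 to -3.02. On chromosome 2 Scn3a fell and the adjoining Scn2a rose. Scn1a, Scn9a and Scn7a, in a row of their own 3 protein-coding genes further on, rose too. Kcna1 and Kcna6 on chromosome 6 both rose and Kcna5 beside them did not pass (log2 fold change 2.42, SE 1.68, in the authors' deposited table). On chromosome 7 Cacng7 and Cacng6 rose and Cacng8 between them did not pass (3.39, SE 1.41, in the authors' deposited table). On chromosome 11 Cacng5 fell, while its neighbour Cacng4 did not pass, with 23.5 in EpiLSC and 7.71 in nESC.

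**Figure D5:**
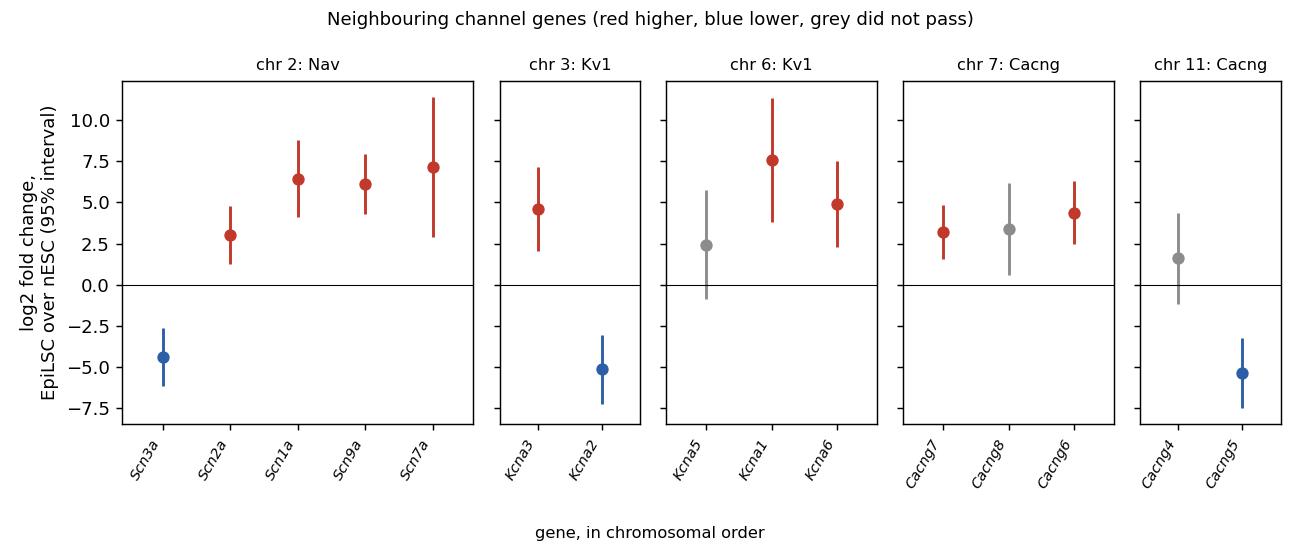
Log2 fold change (EpiLSC over nESC, with 95% intervals) of neighbouring channel genes in chromosomal order, in 5 chromosomal groups. Kcna3 and Kcna2, and Scn2a and Scn3a, lie on opposite sides of zero with intervals that do not overlap.

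The promoters of some of these neighbours are shown to let their sequences be compared, as the 250 bases before the RefSeq start site with each CG in capitals. Those of Scn3a, which fell, and the adjoining Scn2a, which rose, are not shown. The sodium channel windows below are thus all from genes that rose. RefSeq promoters were found for 106 of the 142 genes and for 30 of the 41 called ones, which is 73.2% and under the 80% needed, so no comparison of promoter composition over the genes was made. The Kv1 pair, of which Kcna2 fell and Kcna3 rose, had these sequences:
Kcna2 (GRCm38.p6 chr3:107101317-107101566, + strand): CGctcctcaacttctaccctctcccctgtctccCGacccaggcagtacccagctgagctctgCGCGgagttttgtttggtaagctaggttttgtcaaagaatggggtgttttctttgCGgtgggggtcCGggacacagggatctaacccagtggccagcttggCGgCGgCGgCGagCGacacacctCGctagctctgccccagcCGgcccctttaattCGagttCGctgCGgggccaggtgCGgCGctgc
Kcna3 (GRCm38.p6 chr3:107035912-107036161, + strand): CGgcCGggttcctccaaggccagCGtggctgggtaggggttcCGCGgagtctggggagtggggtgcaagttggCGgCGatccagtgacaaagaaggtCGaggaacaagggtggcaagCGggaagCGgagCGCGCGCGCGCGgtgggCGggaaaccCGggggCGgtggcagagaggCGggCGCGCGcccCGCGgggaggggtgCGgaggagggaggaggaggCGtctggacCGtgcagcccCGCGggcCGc
The row of sodium channel genes that rose had these:
Scn1a (GRCm38.p6 chr2:66440838-66441087, - strand): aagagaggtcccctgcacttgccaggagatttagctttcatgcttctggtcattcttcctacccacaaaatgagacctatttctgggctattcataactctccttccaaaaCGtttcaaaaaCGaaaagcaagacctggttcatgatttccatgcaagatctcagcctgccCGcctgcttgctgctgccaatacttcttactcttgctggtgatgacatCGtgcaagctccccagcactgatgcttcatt
Scn9a (GRCm38.p6 chr2:66634963-66635212, - strand): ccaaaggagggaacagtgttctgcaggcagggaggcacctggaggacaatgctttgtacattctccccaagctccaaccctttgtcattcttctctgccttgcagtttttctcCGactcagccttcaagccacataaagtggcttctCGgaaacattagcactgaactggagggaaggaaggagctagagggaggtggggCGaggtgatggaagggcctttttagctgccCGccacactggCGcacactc
Scn7a (GRCm38.p6 chr2:66784911-66785160, - strand): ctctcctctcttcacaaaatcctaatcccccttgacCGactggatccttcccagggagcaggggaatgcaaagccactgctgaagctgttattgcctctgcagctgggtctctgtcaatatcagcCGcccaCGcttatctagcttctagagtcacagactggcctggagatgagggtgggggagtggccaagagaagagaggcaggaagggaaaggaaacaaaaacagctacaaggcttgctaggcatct
Kcna2 had 18 CG and Kcna3 31, both above the upper quartile of 16 over all promoter windows. The part of CG content in these changes was not tested. Scn1a, Scn9a and Scn7a had 4, 5 and 3, below the median of 6. The GC box GGGCGG was found 2 times in Kcna3 and 1 time in Scn7a on either strand, and in 32.7% of all windows. TTCAGCACC and GGACAG, both parts of the element bound by the neuronal gene repressor REST, were in none of these 5 windows, and occur in 0.301% and 18.7% of all windows. Most windows lack them, and bases beyond the 250 were not searched, so their absence tells little. Binding of REST was not tested.

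Genes of neighbouring functions were counted from lists chosen by name, and each count stands against the 7.67% of all tested genes that rose and the 6.23% that fell. Of 52 tested genes for other channels 7 rose and 4 fell, with a median log2 fold change of 0.02. Among them Piezo2, a mechanosensitive channel, rose to 792 in EpiLSC, against 11.1 in nESC, and Mcoln3, a lysosomal TRP channel, to 328, against 0.977. Unc80 and Unc79, which hold the sodium leak channel NALCN together, rose to 269 and 146 in EpiLSC, against 6.01 and 10.1 in nESC, and Nalcn itself to 216, against 41.5. Pkd2l1, of the polycystin TRP group, fell to 6.58 in EpiLSC, against 509 in nESC, and Cnga4 to 0.508, against 105. Of 25 tested ion pumps and exchangers 2 rose and 3 fell, which is near those shares of all tested genes for the rises. Slc8a1, a sodium-calcium exchanger gene, rose to 208 in EpiLSC, against 20.0 in nESC. Atp2b4, a calcium pump gene, fell to 42.8 in EpiLSC, against 424 in nESC, as did the sodium pump subunit gene Atp1b1, which fell to 966 in EpiLSC, against 5840 in nESC.

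Channel partners outside the symbol rule had 7 rises and 1 fall among 20 tested genes, with a median log2 fold change of 1.57. Fgf13 and Fgf14, intracellular FGF-related proteins that bind sodium channels, rose to 282 and 225 in EpiLSC, against 9.53 and 0.892 in nESC. The membrane scaffold gene Ank2 rose to 2230 in EpiLSC, against 247 in nESC, and Dpp6, a Kv4 partner, fell to 130 in EpiLSC, against 468 in nESC, a call that ended with no filter on low means. Of 24 calcium signalling genes 4 rose and 1 fell (median 0.39). The kinase gene Camk2d rose to 1470 in EpiLSC, against 260 in nESC. Of the phospholipases upstream of TRPC channels, Plcb1 and Plcb2 rose to 177 and 28.4 in EpiLSC, against 38.8 and 0.173 in nESC. The more abundant Plcb3 and Plcb4 did not pass, with 1030 and 1800 in EpiLSC and 1840 and 2870 in nESC. Plcg1 and Plcg2 did not pass either, with 2230 and 2480 in EpiLSC and 2100 and 921 in nESC. Camkk2 fell to 231 in EpiLSC, against 1060 in nESC.

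Markers of cell types that use these channels moved in both directions. Their counts stand against the 7.67% of all tested genes that rose and the 6.23% that fell. Of 10 neuron markers 5 rose (Map2, Rbfox3, Snap25, Elavl3 and Syp) and Stmn2 fell, and 0 were under 3 in both states. Their summed level was 3301 in EpiLSC and 5548 in nESC, of which Stmn2 made up 670 and 4650. Of 9 tested muscle markers Myh6, Actn2 and Acta1 rose and Ttn and Ryr2 fell, and their summed level of 827.4 in EpiLSC and 23730 in nESC included 280 and 22800 from Ttn. Of 7 tested fibroblast and feeder markers Thy1, Mmp2 and Dcn rose and 0 fell, with a summed level of 484.4 in EpiLSC and 101.4 in nESC, and Postn and Lum were under 3 in both states. The part of these cell types in the channel results was not tested, and in bulk RNA fewer cells of a type and less RNA per cell cannot be told apart.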

How the data were processed

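RNA of 4 mouse cultures, 2 EpiLSC and 2 nESC, was sequenced after removal of ribosomal RNA, with a stranded kit, per the labels' protocols. The submitters' processing notes name TopHat2, HTSeq, DESeq2 1.8.2 and the build mm9 (annotation, strand setting and other versions not given in the sources used here). As the 1 file used, the authors' deposited table holds all values. Its mean is a signal, counts divided by size factors by the authors. Its log2 fold changes and SEs, its Wald score, its p-value and its adjusted p are DESeq2 output of the authors, as named by the headers and processing notes. The adjusted p is the Benjamini-Hochberg value over 16361 genes (largest gap to a recomputed value 2.3e-15), and 3935 genes, whose means reach 3.74, lack one. Total reads per sample are unknown, and precision is that of the SEs.

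Names came from GENCODE M21 by ID without version (20167 of 20296 matched), exon lengths and neighbours from the same release, and promoters from RefSeq on GRCm38.p6. With mean m and log2 fold change L, the nESC level was taken as 2m divided by (1 + 2 to the power L) and the EpiLSC level as the rest of 2m, which weights libraries equally. Calls used an adjusted p under 0.05. Python 3.11.15, pandas 2.3.3, scipy 1.17.1 and matplotlib 3.10.9 were used, and the adjustment and the test against a 2-fold change were tested on simulated data. Genes described with their values were the 15 rises with the smallest p, all falls, the highest gene per kilobase of each family, the smallest p of families with no call, and the nearest 2 genes on either side of the threshold; naming other genes, Mitf among them, followed sight of their values. Some of these genes are not reported here. The genes and lists were chosen with earlier results of these data known. Alternatives changed the filter, the threshold, the null and the centring.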

Additional observations from a re-analysis of the deposited data

How the results depend on the processing

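No paired analysis was possible because the table has no column per sample, so neither the cell line as a block nor leaving out a sample could be run. The alternatives left the deposited fold changes as they are, apart from a small shift by centring, so they bear on calls and not on directions. Tested against a 2-fold change 17 rises and 6 falls of 108 tested channel genes stood (all genes 628 and 502 of 16361). With only genes of a mean of 100 or more 10 and 4 of 27 stood (all genes 636 and 615 of 10713). For the other settings below only some families and lists are given, mostly those whose counts changed most. With a 2-fold null the rises were 4 for voltage-gated K pores, 3 for Na pores, 4 for channel partners, 1 for calcium signalling, 2 for neuron and 1 for muscle markers, and 0 for Kv partners, activated K channels and pumps. Rises also stood there for Ca pores (3), Ca auxiliary genes (2), TRPC (2), other channels (5) and fibroblast markers (3). Inward rectifier K, K2P and HCN had 1 each. The falls with that null were 2 for other channels, 1 for muscle and 1 for melanocyte markers, and 0 for K2P, activated K, TRPC, pumps, channel partners, calcium signalling and neuron markers. Falls also stood for voltage-gated K pores (3) and for Ca auxiliary, Na pore and TRPM genes (1 each). With a mean of 100 or more the rises were 2 for voltage-gated K pores, 1 each for activated K, Ca pore, Na pore and TRPC, pumps, muscle and fibroblast markers, 3 each for channel partners and neuron markers, 2 for calcium signalling, and 0 for Kv partners and HCN. Kv partners and HCN had 0 tested genes at that minimum, TRPC 1 and activated K 2, so calls of their scarcer genes could not stand there. The falls were 1 for voltage-gated K pores, 2 for other channels, and 0 for activated K, Ca auxiliary and TRPC. At an adjusted p under 0.01 the rises were 1 each for activated K, pumps and muscle and 3 for neuron markers, and the falls 0 for K2P, activated K, TRPC, channel partners and calcium signalling. With no filter the falls of activated K and channel partners were 0, and the rises of muscle markers 2. By construction the mean minimum tested fewer genes and the 2-fold null and the 0.01 threshold were stricter, while with no filter the adjustment ran over more genes. Centring on the median changed no call of a channel gene. Among channel genes the call of Kcnu1 was the 1 lost with no filter, and 8 calls were lost at 0.01.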
